A study of Mus musculus with 3 samples.

Results

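Postcapillary venule endothelium (PCV) lines the small veins that drain the capillary bed of the Peyer's patch (PP), the lymphoid organ of the small intestine wall. The cells were chosen by measured genes, and the same rule was applied to each of 3 single-cell libraries of PP endothelial cells (EC). A cell had to hold at least 500 genes, at least 1000 unique molecular identifiers (UMIs, counts of single transcripts) and at most 10% mitochondrial UMIs. It then needed at least 3 UMIs of the endothelial genes Pecam1, Cdh5, Egfl7, Emcn and Flt1, fewer UMIs of fibroblast genes than of these, and at most 1 UMI of the lymphatic genes Mmrn1, Reln and Prox1. It was taken as PCV when Selp, Adgrg6, Cytl1 and Fxyd6 together gave at least 4 UMIs and more UMIs than Chst4, Gcnt1, Chst2 and Enpp2, which mark high endothelial cells (HEC). This gave 881 PCV among 11466 cells past the filters and 12480 barcodes in all. The control library held 295 PCV, EC-iCOUPOE replicate 1 held 514 and EC-iCOUPOE replicate 2 held 72.

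The control library is labelled WT and of strain C57BL/6. Both EC-iCOUPOE libraries are labelled CDH5(PAC)CreERT2;COUP-TFIIOE/OE, an allele pair in which Cre recombinase, driven by the Cdh5 promoter of endothelial cells and switched on by tamoxifen, turns on COUP-TFII. Mice were 6 to 10 weeks old, the study's methods give 14 to 19 days from tamoxifen to isolation, and cells of male and female mice were run together. The labels give no number of mice, no strain background of the EC-iCOUPOE libraries and no tamoxifen status of the library labelled WT, so background, pool, tamoxifen and genotype cannot be told apart. The header of EC-iCOUPOE replicate 1 names Cell Ranger 3.1.0, and those of the control and of replicate 2 name 3.0.2. Replicate 2 against control is therefore the comparison within a version, and its level stands beside that of replicate 1 wherever levels are given. The file of replicate 1 has no rows for the CreERT2 and TdTomato sequences, which were at 0 UMIs in the control and in replicate 2, so Cre could not be checked by its transcript. Of the PCV that could be assigned a sex by sex-linked transcripts, 5.33% were male in the control, 39.9% in replicate 1 and 46.0% in replicate 2, so the sexes were mixed unequally and differences were also computed in female cells alone. The control and replicate 2 shared 12 barcodes, of which 0 were PCV, and replicate 1 shared 0 with either.

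Postcapillary venules slow the blood and carry the adhesion molecules and chemokine-binding receptors by which leukocytes leave the circulation. P-selectin, encoded by Selp, is stored with von Willebrand factor in granules of venous cells and captures rolling leukocytes. COUP-TFII, encoded by Nr2f2, is the transcription factor that maintains venous identity, and it opposes Notch signalling. In PP, the homeodomain factor NKX2-3 and the addressin MAdCAM1, a ligand for the gut-homing integrin of lymphocytes, mark the intestinal vasculature, and HEC are the specialised venules through which most lymphocytes enter.

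Because COUP-TFII is a DNA-binding factor, the promoters of the PP addressin gene Madcam1, of the rule gene Selp and of the chemokine scavenger gene Ackr1 are shown. They are RefSeq sequences of GRCm38.p6, 250 bases before to 50 bases after the gene start, at chr10:79664309-79664608 (plus strand), chr1:164115014-164115313 (plus strand) and chr1:173333454-173333753 (minus strand), each written 5′ to 3′. Capitals mark the COUP-TFII motif GGTCA or GGTCG on either strand, on which it reads TGACC or CGACC.
Madcam1: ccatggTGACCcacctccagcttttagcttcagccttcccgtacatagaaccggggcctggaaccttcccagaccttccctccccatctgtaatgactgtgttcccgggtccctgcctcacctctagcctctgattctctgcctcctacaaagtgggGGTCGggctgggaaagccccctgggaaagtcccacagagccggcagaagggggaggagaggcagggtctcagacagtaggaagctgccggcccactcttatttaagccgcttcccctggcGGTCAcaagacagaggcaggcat
Selp: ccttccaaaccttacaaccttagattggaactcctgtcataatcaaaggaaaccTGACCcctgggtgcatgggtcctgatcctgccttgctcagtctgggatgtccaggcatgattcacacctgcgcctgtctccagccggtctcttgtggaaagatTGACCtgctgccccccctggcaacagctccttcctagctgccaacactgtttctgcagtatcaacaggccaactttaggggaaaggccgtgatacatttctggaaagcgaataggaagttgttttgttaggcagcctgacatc
Ackr1: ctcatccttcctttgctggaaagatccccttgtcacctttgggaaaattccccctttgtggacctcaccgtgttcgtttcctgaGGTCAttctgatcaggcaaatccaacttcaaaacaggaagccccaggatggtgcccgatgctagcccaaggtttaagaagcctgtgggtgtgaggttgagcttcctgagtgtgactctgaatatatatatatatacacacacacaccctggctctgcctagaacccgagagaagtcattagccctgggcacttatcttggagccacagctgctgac
Madcam1 held 3 matches, Selp held 2 and Ackr1 held 1. The study tested a composite element of NKX2-3 and COUP-TFII sites in the Madcam1 promoter, which its reporter constructs place near or beyond the upstream end of this window. Whether any match shown here belongs to that element was not checked. Of 32851 promoters of the same length, 53.0% held at least 1 match, so these letters are common. The NKX core AAGTG, not in capitals and searched on both strands, was found in the promoters of Madcam1 and Ackr1 at 1 match each, against 46.4% of all promoters. A match of letters is a description of the sequence and was not tested for binding.

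The label was checked against marker genes in each library. For each library the UMIs of all its PCV were added up gene by gene and scaled to 1000000 (CPM). The sums rest on 1076000 UMIs in the control, 2527194 in EC-iCOUPOE replicate 1 and 231347 in replicate 2, with a median of 3230, 4129 and 3082.5 UMIs per cell, so a single UMI was worth 0.929, 0.396 and 4.32 CPM. Lrg1, a secreted glycoprotein of venous endothelium that the rule did not use, stood at 2572 CPM in PCV against 844 CPM in the other blood EC of the control, at 2877 against 1666 CPM in replicate 1 and at 4737 against 1810 CPM in replicate 2. Lrg1 did not set PCV apart from HEC, which held 5678, 4673 and 5059 CPM. The lymphocyte genes were near 0, with 11.2, 8.31 and 0 CPM over 9 genes and Ptprc, the pan-leukocyte phosphatase, at 0 in all 3 libraries. The 9 arterial genes summed to 789, 676 and 583.5 CPM in PCV, against 2336, 1234 and 1308 CPM in other blood EC. Hey1, a Notch target of arterial cells, stood at 18.6, 8.71 and 0 CPM in PCV and at 222, 41.4 and 66.7 CPM in other blood EC. Fbln5, the most abundant arterial gene in PCV, did not separate them, at 445, 378 and 259 CPM against 494, 357 and 242 CPM. The 7 capillary genes summed to 622, 449.9 and 687 CPM in PCV, against 1356, 777 and 1599 CPM. The capillary gene Rgcc stood at 40.9, 24.5 and 60.5 CPM in PCV, below the 275, 219 and 581 CPM of other blood EC. Cd36, a fatty acid receptor and the most abundant capillary gene in PCV, did not separate them, at 453, 311 and 419 CPM against 475, 244 and 616 CPM. The name PCV was kept on these values with those exceptions, which differ from other cells partly because the cells were selected on measured genes, so no test was made.

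By the same within-library ratios, with 10 CPM added to each level, 25 of 5219 genes were at least 2-fold above other blood EC in every library and 67 were at least 2-fold below. On the high side, genes were ordered by their lowest ratio over the libraries, among 685 genes with at least 50 UMIs in PCV of every library. After the rule genes Cytl1, Selp and Fxyd6 came Ackr1, the atypical receptor that carries chemokines across venules, at log2 ratios of 2.80, 2.22 and 3.95 in control, replicate 1 and replicate 2. Ctsh, a lysosomal protease, stood at 3.06, 2.04 and 2.40. Cldn5, the main claudin of endothelial tight junctions, stood at 2.24, 2.05 and 1.93, and Gucy1a1, a subunit of the nitric oxide receptor guanylate cyclase, at 2.52, 1.56 and 1.57. The other genes of the leading 15 were Gem, Fam174b, Rcan1, Myof, Dusp2, Rnd1, Iqgap1 and Pdia5, with lowest ratios from 0.99 (Pdia5) to 1.86 (Gem). On the low side, genes came from the 5219 with at least 50 UMIs in every library in either PCV or other blood EC. The leading ones included Cxcl12, Sparcl1 and Igfbp3. Cxcl12, the chemokine ligand of CXCR4, was at log2 ratios of -2.57, -2.27 and -2.40, Sparcl1 at -2.77, -2.18 and -2.23, and Igfbp3 at -2.49, -3.08 and -2.72.

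**Figure D1:**
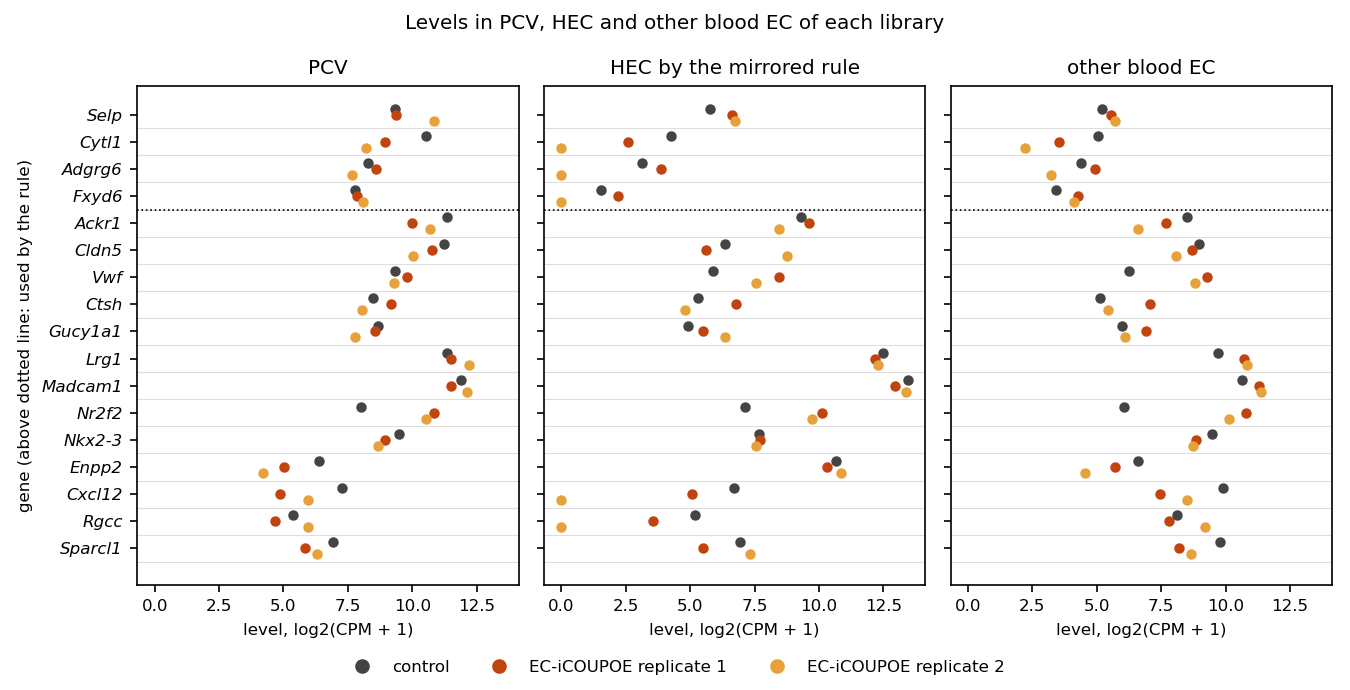
Levels of 17 genes, as log2(CPM + 1) on the x axis, in PCV, in HEC taken by the mirrored rule and in other blood EC, with a point for each library. Ackr1, Cldn5, Ctsh and Gucy1a1 lie further right in PCV than in other blood EC in all 3 libraries, whereas Vwf, Nr2f2 and Madcam1 of other blood EC lie near those of PCV in the EC-iCOUPOE libraries only. HEC of EC-iCOUPOE replicate 2 are 8 cells.

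Against HEC, PCV were the Madcam1-lower venous cells. Madcam1 in PCV was at 3745, 2906 and 4439 CPM in control, replicate 1 and replicate 2, against 11232, 7862 and 10545 CPM in HEC. Nkx2-3 was higher in PCV, at 712, 486 and 411 CPM against 205, 210 and 187 CPM. Fut7, which makes the fucosylated selectin ligands of HEC, was at 17.7, 13.1 and 4.32 CPM in PCV and at 325, 307 and 187 CPM in HEC. The HEC genes of the rule, low in PCV by selection, are given as a description for the control: Chst4 stood at 0, Gcnt1 at 9.29, Chst2 at 6.51 and Enpp2 at 82.7 CPM.

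PCV made up 11.95% of blood EC in the control (exact Clopper-Pearson 95% interval 10.69 to 13.29), 14.23% in EC-iCOUPOE replicate 1 (13.1 to 15.41) and 7.453% in replicate 2 (5.877 to 9.295). Both EC-iCOUPOE libraries lay outside the control interval, on opposite sides, so the libraries of the same genotype differed from each other more than either differed from the control. The position of replicate 1 depended on the rule: its share lay inside the control interval at a limit of 6 UMIs (9.106%, control 7.473 to 9.719), with cells thinned before the rule (9.48%, control 7.541 to 9.905) and without Selp (11.49%, control 9.539 to 12.02). In male cells replicate 2 stood at 13.45% and the control at 11.4%. With 1 control library no test between genotypes was made, and the intervals cover counting error only. Of PCV and HEC together, PCV were 35.5% in the control, 63.2% in replicate 1 and 90% in replicate 2, where HEC were 535, 299 and 8 cells. The rule was met through different genes: of the rule's UMIs in PCV, Cytl1 gave 55.5% in the control and 11.2% in replicate 2, whereas Selp gave 24.5% and 70.8%, and in replicate 1 they gave 27.7% and 37.5%. Without Selp in the rule, 265, 415 and 28 cells remained, and the share in replicate 2 was 2.899%. Cells just inside the limit, at 4 rule UMIs, had 1931, 896 and 1002 CPM of Ackr1 in control, replicate 1 and replicate 2, and cells just outside, at 3 rule UMIs, had 1924, 668 and 530 CPM.

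The targeted gene was examined next. Nr2f2 stood at 254 CPM in control PCV (exact Poisson 95% interval 225 to 286), at 1846 CPM in replicate 1 (1794 to 1900) and at 1487 CPM in replicate 2 (1334 to 1653). Both EC-iCOUPOE libraries were thus above the control, by 7.28-fold and 5.86-fold, and counts do not tell the transcript of the allele from that of the resident gene. After thinning every cell to 1000 UMIs, 22.7% of control PCV, 76.1% of replicate 1 and 69.4% of replicate 2 held a UMI of Nr2f2. Lymphocyte-like cells, which should lack it, held it in 0 of 10, 2 of 16 and 0 of 3 cells at the same depth. Among single PCV the median was 2.08 UMIs per 10000 in the control, 17.5 in replicate 1 and 11.8 in replicate 2, and the 90th percentile of control cells, 6.88, lay below both EC-iCOUPOE medians. In edgeR's quasi-likelihood test the log2 difference was 2.73 ± 0.51 (SE, 1 control and 2 EC-iCOUPOE libraries) with an adjusted p of 0.187, so Nr2f2 did not pass the threshold of 0.05. It passed in 7 of 12 other settings, among them DESeq2 at an adjusted p of 0.000472. In other blood EC of the same libraries Nr2f2 stood at 64.9, 1771 and 1116 CPM.

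**Figure D2:**
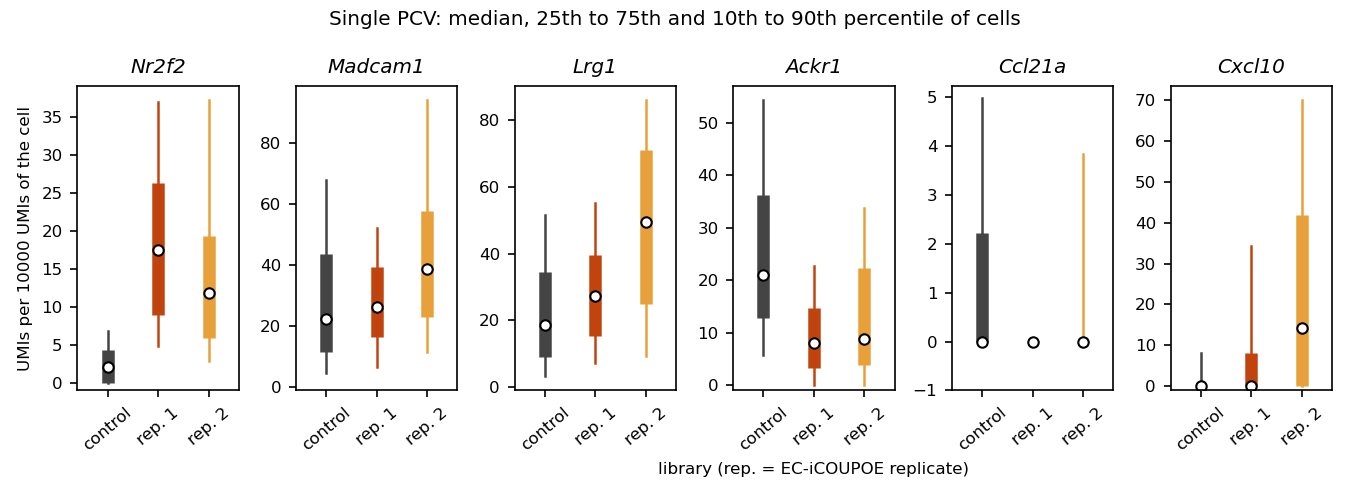
UMIs per 10000 UMIs of a cell on the y axis, in single PCV of the 3 libraries on the x axis, for 6 genes. White points are medians, thick bars run from the 25th to the 75th percentile and thin lines from the 10th to the 90th. Nr2f2 is higher in both EC-iCOUPOE libraries, the ranges of Madcam1 overlap in all 3 libraries, Ackr1 is lower and Cxcl10 reaches higher in both EC-iCOUPOE libraries.

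The named venous and addressin genes did not pass the test in PCV. Madcam1 stood at 3745, 2906 and 4439 CPM, and its log2 difference was 0.02 ± 0.53 (edgeR adjusted p 0.999). The order of the libraries depended on the measure: female PCV held 3780, 2870 and 3394 CPM of Madcam1, and the median single PCV held 22.4, 26.2 and 38.8 UMIs per 10000. Nkx2-3 stood at 712, 486 and 411 CPM, below the control in both EC-iCOUPOE libraries, at a log2 difference of -0.64 ± 0.41. St6gal1, the sialyltransferase that makes the ligand of the B cell lectin CD22, stood at 49.3, 49.1 and 60.5 CPM. Vcam1, the ligand of integrin alpha 4 beta 1, stood at 112, 91.0 and 51.9 CPM, and Ackr1 at 2586, 1001 and 1634 CPM, below the control in both EC-iCOUPOE libraries. Among the Notch targets, Hes1 stood at 106, 116 and 151 CPM, and Hey1 was under the count filter with 20, 22 and 0 UMIs. Nr2f1, the close relative of Nr2f2, held 0, 10 and 0 UMIs. The rule genes are given as a description: Selp stood at 649, 658 and 1854 CPM, Adgrg6 at 313, 382 and 203 CPM, Cytl1 at 1468, 486 and 294 CPM and Fxyd6 at 217, 230 and 268 CPM.

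Ccl21a, the lymphoid chemokine that binds CCR7, differed between replicates of the same genotype. Its level was 829 CPM in control PCV, 908 CPM in replicate 1 and 3402 CPM in replicate 2. It was held by few cells, 83 of 295 in the control, 51 of 514 in replicate 1 and 16 of 72 in replicate 2, where a single cell gave 31.3% of its UMIs. In female PCV alone the order turned, with 844, 402 and 69.0 CPM, and the pooled log2 difference of 1.46 became -1.75, and -1.67 when Selp was left out of the rule.

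Of 5993 genes counted, 2 rose and 8 fell in EC-iCOUPOE PCV by edgeR's quasi-likelihood test at an adjusted p below 0.05, that is 0.0334% and 0.133% of all genes. At an unadjusted p below 0.05 there were 325, and DESeq2 called 17 higher and 8 lower, 8 of the 10 edgeR calls among them. These counts leave out the genes of the rule and 6 sex-linked genes. Without TMM factors the same test called 58 higher and 41 lower, so the share of calls that were higher went from 20% to 58.6% while the median log2 difference of all genes moved by 0.0043. With a lone control, the test takes the spread of the control from the EC-iCOUPOE libraries and from all genes. No gene list had more than a single call, and the calls are given one by one.

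Krt19, an intermediate filament keratin, rose. It stood at 1.86 CPM in control PCV, with 2 UMIs in all, at 233 CPM in replicate 1 and at 281 CPM in replicate 2, and its log2 difference was 7.06 ± 0.70 (edgeR adjusted p 0.0221). Both EC-iCOUPOE libraries lay far above the control, and 277 of 514 and 30 of 72 cells held it, against 2 of 295. The epithelial genes Epcam and Cdh1 were at 0 in PCV of all 3 libraries, and Krt8 held 0, 0 and 1 UMI. Krt18, the other keratin of the epithelial list, held 0 UMIs in the control, 35 in replicate 1 (13.85 CPM) and 0 in replicate 2. In female PCV alone Krt19 stood at 2.33, 266 and 334 CPM. The rise was not particular to PCV: Krt19 stood at 0.286, 105 and 88.8 CPM in other blood EC. HEC held 0.267, 82.4 and 0 CPM of it, the last in 8 cells. In cells outside blood endothelium Krt19 stood at 0, 81.3 and 148 CPM.

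Trim12a, of a family of antiviral ubiquitin ligases, stood at 0 UMIs in control PCV, at 61.7 CPM in replicate 1 and at 73.5 CPM in replicate 2. Against a floor of 3 UMIs in the control this is at least 22.1-fold and at least 26.4-fold higher (edgeR adjusted p 0.0498). It was no longer past the threshold in female PCV or at a rule limit of 6 UMIs. The rise was not particular to PCV: other blood EC held 0.572, 55.1 and 51.5 CPM of Trim12a, and HEC 0.535, 39.2 and 80.3 CPM. Cells outside blood endothelium held 0.118, 87.5 and 47.5 CPM.

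Glycam1, a mucin that carries the L-selectin ligand of HEC, fell. It stood at 769 CPM in control PCV, at 2.37 CPM in replicate 1 and at 0 in replicate 2 (log2 difference -8.51 ± 0.61, edgeR adjusted p 0.00518), and 119 of 295 control PCV held it, against 4 and 0 cells. A single control cell gave 272 of its 827 UMIs. The low level was not particular to PCV: Glycam1 stood at 1449.5 CPM in other blood EC, at 65121 CPM in HEC and at 1080 CPM in cells outside blood endothelium of the control, each above control PCV, and at 9.06, 5527 and 128 CPM in those of replicate 1. In replicate 2 it stood at 0, 348 and 0 CPM. At a depth of 1000 UMIs 14.6% of control PCV held it, against 1 of 10 control lymphocyte-like cells, which should lack it, so the level of control PCV cannot be told apart from free RNA.

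Serpina1b, a serum protease inhibitor of the alpha-1-antitrypsin family, fell from 1010 CPM in the control to 8.31 CPM in replicate 1 and to 0 in replicate 2 (log2 difference -7.25 ± 0.67, edgeR adjusted p 0.0165, DESeq2 adjusted p 0.292). Serpina1b was also lower elsewhere, at 559, 12.7 and 1.84 CPM in other blood EC, 3678, 185 and 161 CPM in HEC and 440, 8.69 and 0 CPM in cells outside blood endothelium. Its near-identical neighbour Serpina1e stood at 0.929, 20.2 and 12.97 CPM, the opposite order, and reads of this family can be split between its copies by the counting, so both are uncertain. The processed pseudogene Gm10093 fell from 55.8 to 0.396 and 0 CPM, and it stood at 44.4, 0.931 and 1.28 CPM in cells outside blood endothelium.

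The other 5 genes that fell were each carried almost wholly by a single control cell. Hbb-bs, Hbb-bt and Hba-a2 are haemoglobin genes of red blood cells. Of the 1269 UMIs of Hbb-bs in control PCV, all lay in 1 cell, and of the 551 of Hba-a2, 550 lay in 1 cell. The neuropeptide genes Gal and Cartpt held 67 and 66 UMIs, again each in 1 cell. Over all 9 platelet and red blood cell genes the control PCV held 2498 CPM, against 24.1 and 25.9 CPM in replicates 1 and 2, with Hbb-bs the most abundant in the control at 1179 CPM. Gp1bb was at 0 in the control, 5 of the 9 genes were at 0 in each EC-iCOUPOE library, and Pf4 was at 0 in both. When cells with over 2 UMIs of markers of other cell types were left out, the test called 5 higher and 6 lower, and 2 and 5 of the calls above remained.

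By size alone, with no test, both EC-iCOUPOE libraries exceeded the control 2-fold or more for 177 genes (2.95%) and fell short of it by as much for 79 (1.32%). A level of 0 was set to 3 UMIs in either direction. The exact counting intervals of both ratios were clear of equality for 133 and 71 of them. Replicate 1 alone against control gave 388 higher and 201 lower genes, and replicate 2 alone, with the fewest UMIs, gave 359 and 748.

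**Figure D3:**
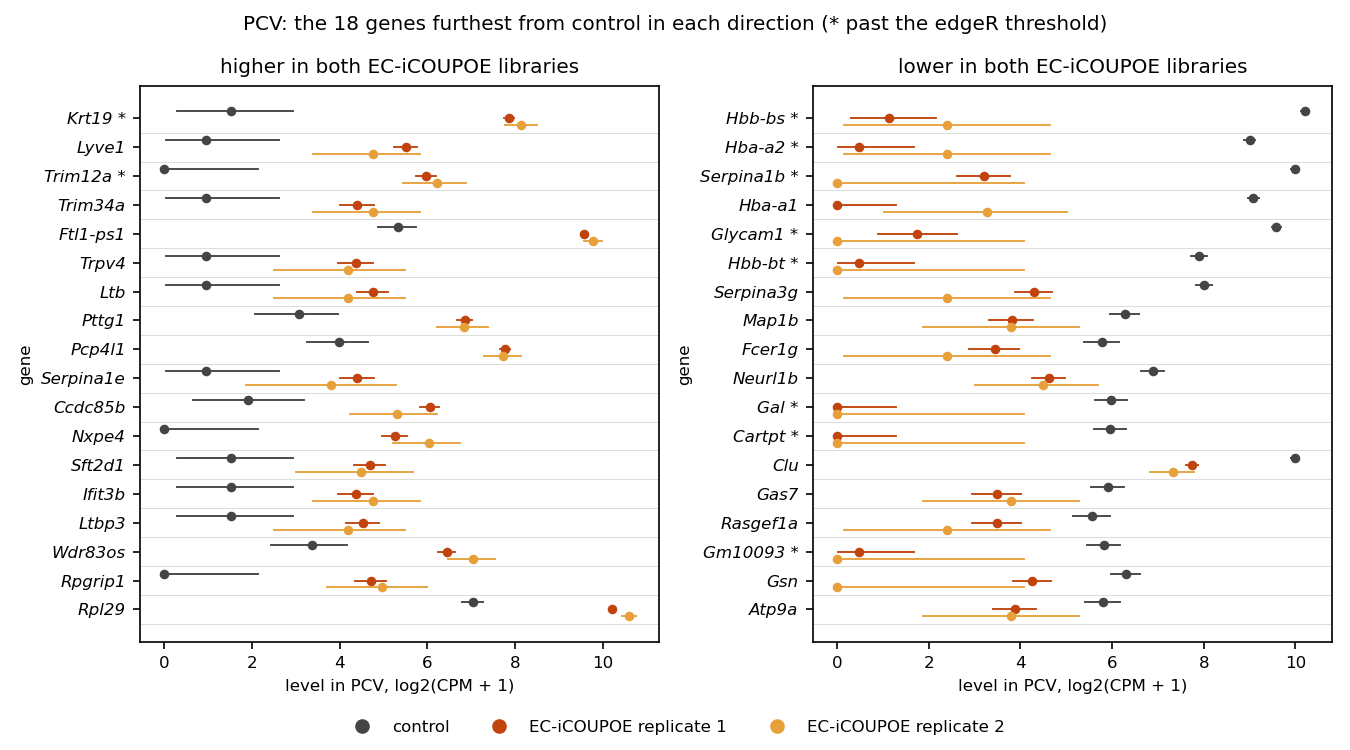
Levels in PCV, as log2(CPM + 1) on the x axis, of the 18 genes with the largest and the 18 with the smallest difference by the smaller of the log2 ratios of both EC-iCOUPOE libraries, with exact Poisson 95% intervals as lines. The EC-iCOUPOE libraries lie near each other and away from the control, and those past the edgeR threshold carry an asterisk.

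The genes named next come from this size rule and were chosen after their values were seen. Ly6a, the surface antigen Sca-1, stood at 484 CPM in control PCV, 3530 CPM in replicate 1 and 3272 CPM in replicate 2 (edgeR adjusted p 0.187). It was also higher in other blood EC, at 841, 3778 and 4317 CPM, whereas cells outside blood endothelium held 459, 388 and 508 CPM. Spry1, an inhibitor of receptor tyrosine kinase signalling, stood at 14.9, 135 and 121 CPM. Emilin1, an elastic fibre glycoprotein, stood at 16.7, 118 and 121 CPM, Cebpb, an inflammatory transcription factor, at 97.6, 457 and 795 CPM, and Cyp26b1, an enzyme that breaks down retinoic acid, at 71.6, 241 and 337 CPM. In each of these 5 genes both EC-iCOUPOE libraries lay above the control. Lyve1, a hyaluronan receptor of lymphatic endothelium, stood at 0.929, 44.7 and 25.9 CPM. Other blood EC held 0.572, 40.7 and 16.6 CPM of Lyve1, HEC 9.89, 151 and 80.3 CPM, and cells outside blood endothelium 0.353, 2698 and 1066 CPM. Whether free RNA of those cells gave the level in PCV was not tested. Over the 8 lymphatic genes Pdpn, Mmrn1 and Reln were at 0 in the control, 0 genes in replicate 1 and only Pdpn in replicate 2, and Ccl21a made up most of the list's 857, 1014 and 3488 CPM.

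Lower in both EC-iCOUPOE libraries were Clu, a secreted chaperone, at 1010, 214 and 160 CPM, Ehd4, an endocytic ATPase, at 1403, 467 and 333 CPM, Tgfbi, a matrix protein, at 454, 132 and 125 CPM, and Gbp4, an interferon-induced GTPase, at 481, 159 and 99.4 CPM. Cxcl12 stood at 153, 28.5 and 60.5 CPM. None of the 5 passed the edgeR test. Fibroblast genes summed to 100, 1.19 and 12.97 CPM in PCV, led by Col3a1 at 28.8 CPM in the control, Dcn at 0.791 CPM and Lum at 4.32 CPM, with Pdgfra and Pi16 at 0 in the control. Their part in these differences was not tested.

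Some of the largest differences were as large in cells outside blood endothelium of the same libraries. Ftl1-ps1 stood at 39.0, 759 and 877 CPM in PCV (edgeR adjusted p 0.0519) and at 42.7, 940 and 917 CPM in the other cells. Rpl29, a ribosomal protein gene, stood at 130, 1177 and 1547 CPM in PCV and at 95.5, 895 and 1345 CPM in the others. Pcp4l1 stood at 14.9, 218 and 212 CPM and at 7.53, 476 and 410 CPM. The other cells were mostly fibroblast-like in the control (2654 cells, against 26 and 12), so they are not the same mixture in each library.

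The gene lists are given by their counts, to be read beside the 2.95% of all genes that were at least 2-fold higher and the 1.32% at least 2-fold lower in both libraries. A gene under 50 UMIs in the control entered these counts only through an EC-iCOUPOE library, so for such a gene a higher level is partly fixed by the filter. In the type I interferon list, 1 of 27 genes, Trim12a, passed the edgeR test, 5 were at least 2-fold higher in both libraries and 0 lower, and the median log2 difference was 0.59 against 0.02 for all genes. Besides Trim12a these were Ifit3, at 24.2, 235 and 216 CPM, Ifit3b, Bst2 (tetherin, at 177, 543 and 523 CPM) and Ly6e, at 464, 1047 and 2438 CPM. Trim12a, Ifit3 and Ifit3b, with 0, 26 and 2 control UMIs, entered only through an EC-iCOUPOE library. Its most abundant gene, Ifitm3, stood at 7638, 9083 and 7759 CPM. In the interferon gamma and MHC list 4 of 32 genes were at least 2-fold higher (Gbp5, Gm4951, H2-Q4 and H2-Q7) and 2 lower (Gbp4 and H2-D1), with 0 called. H2-D1 stood at 6061, 2920 and 2753 CPM, and B2m, its light chain, at 6902, 2206 and 7655 CPM, with replicate 1 far below the other libraries. Reads of the H2 family can be split between its copies, so these values are uncertain.

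**Figure D4:**
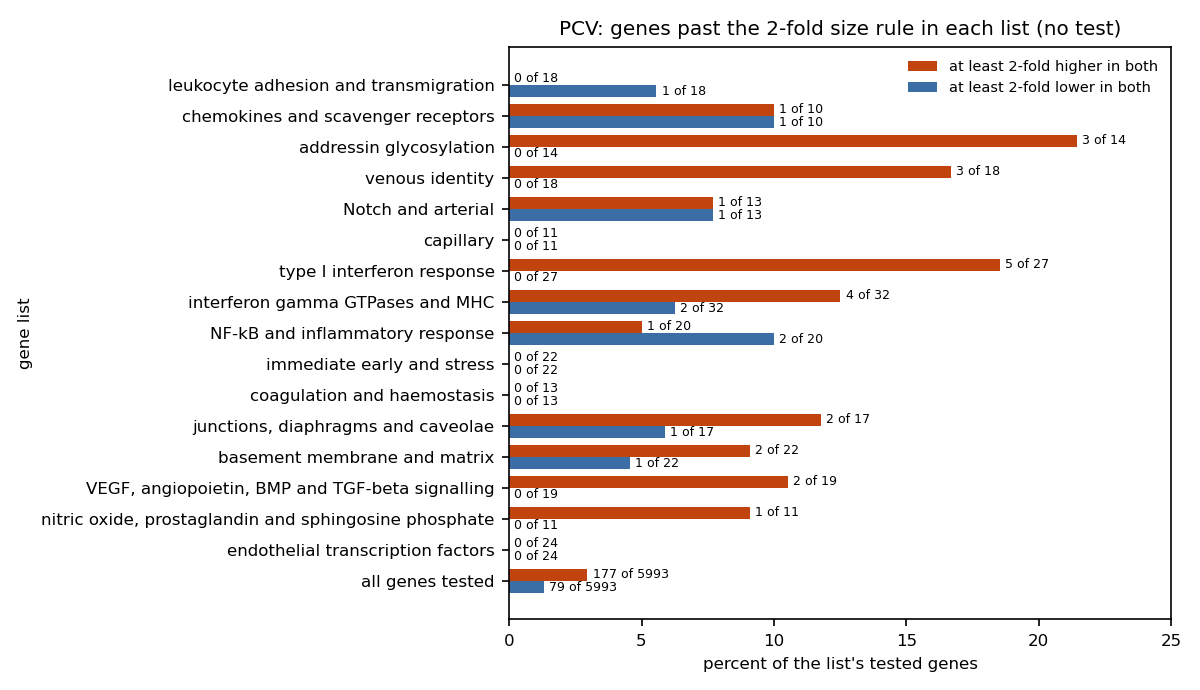
Percent of the tested genes of each list, on the x axis, that were at least 2-fold higher or lower in both EC-iCOUPOE libraries, with the counts beside the bars and all 5993 genes in the bottom row. The lists of addressin glycosylation, type I interferon and venous identity have the longest bars, of 3 of 14, 5 of 27 and 3 of 18 genes. All 3 of the glycosylation genes and some of the interferon genes entered the count filter only through an EC-iCOUPOE library.

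Of the lists on leukocyte traffic, adhesion held 18 tested genes, 0 of which were at least 2-fold higher and 1 lower, Glycam1. In the chemokine list 1 of 10 was higher, Cxcl10, and 1 lower, Cxcl12. Cxcl10, which draws CXCR3-bearing T cells, stood at 308, 1069 and 2511 CPM (log2 difference 2.604 ± 0.73, edgeR adjusted p 0.496), and after thinning 13.9%, 27.4% and 55.6% of PCV held it, against 0 of 10, 2 of 16 and 0 of 3 lymphocyte-like cells. Addressin glycosylation had 3 of 14 genes at least 2-fold higher, B3gnt3, B4galt1 and C1galt1, at 16.7, 15.8 and 15.8 CPM in the control. These 3 lay under the filter of 50 UMIs in the control and entered only through an EC-iCOUPOE library, where they are high. The most abundant genes of the list, St3gal6 and St3gal4, stood at 262, 240 and 324 CPM and at 102, 96.9 and 60.5 CPM. In the venous list the higher genes were Nr2f2, Aplnr and Prcp, 3 of 18. Aplnr, the apelin receptor, stood at 191, 415 and 480 CPM.

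Arterial, capillary and vessel-wall genes showed few differences of size. Among Notch and arterial genes 1 of 13 was higher, Ltbp4, and 1 lower, Clu, with Fbln5 at 445, 378 and 259 CPM. Of 11 capillary genes 0 met the size rule in either direction, and Fabp4, a fatty acid carrier, stood at 3701, 11275 and 6994 CPM, Plvap, the diaphragm protein of fenestrae, at 3616, 3904 and 3519 CPM. The junction list, with Cldn5 at 2373, 1733 and 1042 CPM, had 1 lower (Ehd4) of 17, the matrix list 2 higher (Lama4 and Emilin1) and 1 lower (Mgp) of 22, with Timp3 at 407, 804 and 1094 CPM and Mmrn2 at 727, 690 and 584 CPM. The growth factor list had Aplnr and Thbs1 higher of 19, with Ptprb at 867, 1158 and 718 CPM and Id3, a target of BMP signalling, at 776, 1081 and 731 CPM, and the nitric oxide and lipid mediator list Gucy1b1 higher of 11, with Slco2a1, the prostaglandin transporter, at 1026, 1313 and 1003 CPM and Plpp3, a lipid phosphatase, at 808, 473 and 449.5 CPM. The NF-kB list had Socs1 higher and Nfkb2 and Tnfrsf1b lower of 20, with Nfkbia at 2186, 1856 and 3653 CPM and Socs3 at 1111, 1643 and 1789 CPM. Immediate early genes (22), coagulation (13, with S100a10 at 1662, 1977 and 1267 CPM and Cd9 at 1325, 1832 and 1950 CPM) and endothelial transcription factors (24) had 0 genes in either direction, with Fos at 3355, 4069 and 4470 CPM, Klf2 at 3623, 2927 and 3216 CPM and Klf4 at 876, 552 and 463 CPM.

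The last comparison asked whether EC-iCOUPOE and control differed by the same amount in PCV as in the other blood EC of the same libraries, 1639, 2800 and 886 cells that were neither PCV nor HEC. In an edgeR fit with the library as a block and 1 residual degree of freedom, the difference itself differed for 133 of 9660 genes at an adjusted p below 0.05, 55 more positive in PCV (0.569%) and 78 more negative (0.807%). The gap between PCV and other blood EC in the control comes from the lone control library. The spread in this fit is therefore that of the EC-iCOUPOE libraries and of all genes. Its p-values and SE do not measure how the gap varies between control libraries. Other blood EC are a mixture of capillary, arterial and other cells, so a change of each cell and a change of the mixture cannot be told apart.

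Of the 78 genes on the negative side 74 were above other blood EC in control PCV, and of the 55 on the positive side 52 were below. The control gap is itself a term of this difference, so these counts are no separate result. The same holds for the counts by list below, and the share of all genes is no baseline for genes chosen by such a gap. Venous genes were among those on the negative side, and other blood EC of both EC-iCOUPOE libraries held more Vwf, Nr2f2, Madcam1 and Lrg1 than those of the control. Vwf, von Willebrand factor, stood at 651, 896 and 627 CPM in PCV and at 75.2, 625 and 444 CPM in other blood EC (difference of log2 differences -2.61 ± 0.20, edgeR adjusted p 2.6e-34). Nr2f2 itself stood at 254, 1846 and 1487 CPM against 64.9, 1771 and 1116 CPM (-1.75 ± 0.18), so PCV and other blood EC of replicate 1 were at nearly the same level. Madcam1 in other blood EC was 1594, 2529 and 2649 CPM (-0.78 ± 0.12), and Lrg1 844, 1666 and 1810 CPM (-0.54 ± 0.13). Of the 18 genes of the venous list in this fit 7 were on the negative side, against 0.807% of all genes, and 0 were on the positive side. They were Ptgs1, Prcp, Ctsh and Vcam1 besides Vwf, Lrg1 and the overexpressed gene Nr2f2. All 7 were above other blood EC in control PCV, so a lean to the negative side was partly fixed in advance. Other lists leaned the same way, and coagulation had 5 negative genes of 16 (Vwf among them) and 1 positive, and leukocyte adhesion 4 negative of 20 (Vwf, Vcam1, Madcam1 and Icam1) and 0 positive. Amigo2, an adhesion protein, stood at 198, 199 and 268 CPM in PCV and at 32.6, 143 and 153 CPM in other blood EC, and Lbp, which binds bacterial lipopolysaccharide, at 212, 205 and 134 CPM and at 21.2, 88.1 and 39.1 CPM. Acta2, smooth muscle actin, and the haemoglobin genes Hbb-bs, Hba-a1 and Hba-a2 complete the 8 of smallest p on this side, and in control PCV 1 cell gave nearly all UMIs of the haemoglobin genes.

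**Figure D5:**
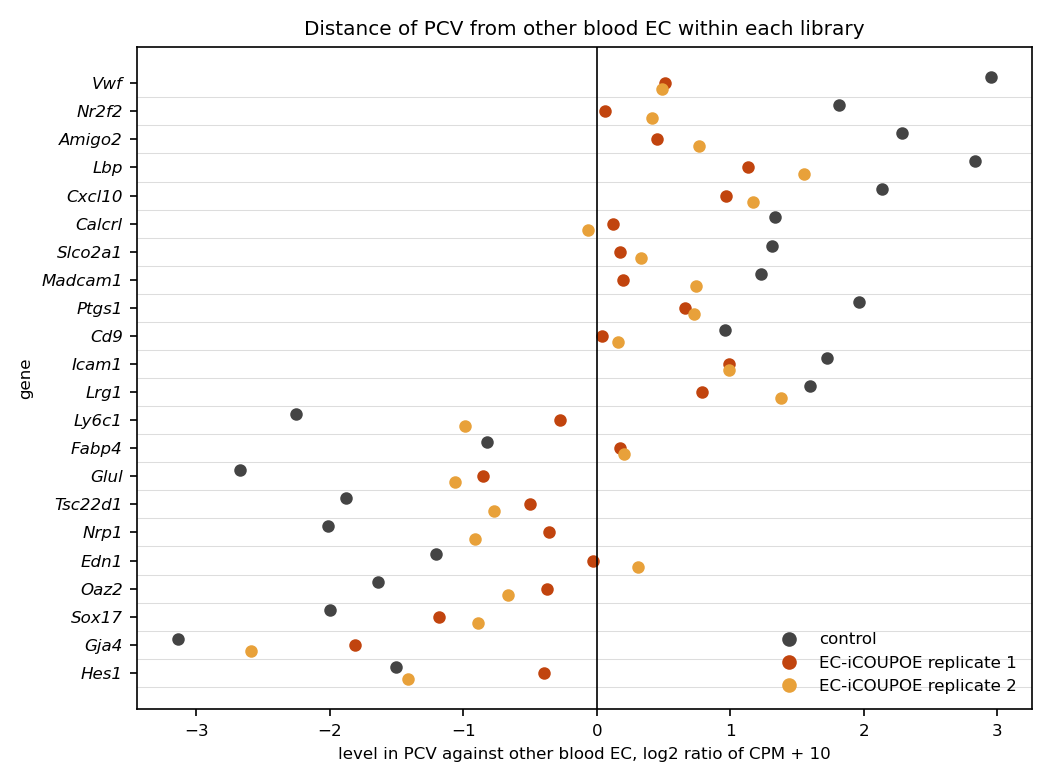
Log2 ratio of the level in PCV to that in other blood EC (x axis, 10 CPM added to each) within each library, for 22 genes called by the interaction test, with a point for each library. The EC-iCOUPOE points of Vwf, Nr2f2 and Madcam1 lie nearer to 0 than the control point, and those of Ly6c1, Glul and Nrp1 lie nearer to 0 from the other side.

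On the positive side, Ly6c1, a surface antigen of capillary and arterial endothelium, stood at 519, 884 and 1673 CPM in PCV and at 2506, 1072 and 3331 CPM in other blood EC (1.64 ± 0.15, edgeR adjusted p 5.3e-24). Glul, glutamine synthetase, stood at 142, 90.6 and 229 CPM in PCV against 960, 171 and 488 CPM (1.76 ± 0.22). Nrp1, a co-receptor for VEGF and semaphorins, stood at 126, 185 and 138 CPM against 540, 240 and 269 CPM, and Tsc22d1 at 256, 529 and 864 CPM against 968, 753 and 1484 CPM. Edn1, the vasoconstrictor peptide endothelin, stood at 66.9, 110 and 238 CPM against 167, 112 and 189.5 CPM, and Oaz2 at 163, 66.9 and 182 CPM against 526, 89.7 and 293 CPM. Fabp4 and Ccl21a complete the 8 of smallest p. Ccl21a turns with the cells taken, and its difference was negative in replicate 1 (-0.59) and positive in replicate 2 (3.19). The Notch and arterial genes Hes1, Sox17, Gja4 and Nrp1 were on the positive side, 4 of the 23 list members in this fit against 0.569% of all genes, with 0 on the negative side. All 4 were below other blood EC in control PCV, so this count too is no separate result. Ackr1 did not pass this test (0.22, edgeR adjusted p 0.924), with 362, 207 and 96.6 CPM in other blood EC.

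In female cells alone, 231, 221 and 27 PCV, 57 genes passed this test, and 6 rose and 8 fell in PCV. In male cells, with 13 PCV in the control, 1 gene passed it and 0 rose or fell.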

How the data were processed

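The deposited files hold raw UMI counts, a gene by barcode matrix per library, which the authors made with Cell Ranger 3.0.2 and mm10 per the labels. Gene coordinates and names follow GENCODE vM21 on GRCm38, which is the same assembly.

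Counts were read with Python 3.11.15, scipy 1.17.1 and pandas 2.3.3 and summed over PCV per library. Differences were tested with edgeR 4.0.16 in R 4.3.3 (TMM factors, quasi-likelihood, Benjamini-Hochberg adjustment) on genes that reached 50 UMIs in PCV of some library; a gene that passed only through the group where it is high had to differ. DESeq2 1.42.0 was an alternative. Doublets (Scrublet in scanpy 1.11.5, 6% expected) were 5, 0 and 0 PCV and were kept. Scripts were tested on simulated data. The libraries held 17341398, 17417260 and 3548983 UMIs. Nothing says how many mice a library pools, so p-values measure the spread between libraries, and with a lone control only that between the EC-iCOUPOE libraries.

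The members, gene lists, named genes and tests were chosen with earlier results of these data known. Named are the rule genes, the venous and addressin genes, up to 12 genes past the edgeR threshold in each direction, in each list up to 4 genes past it or else the 2 with the most UMIs, the 15 leading identity genes and the 8 of smallest p in each direction of the interaction. Alternatives changed the normalization, tool, filter, rule, sex, cells and libraries. Values from PCV and other blood EC share their libraries. Columns of other samples left unused were 0. Some results on single genes are not reported here.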

Additional observations from a re-analysis of the deposited data

Results flagged for a closer look

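The genes below differed by the interaction test, that is, the EC-iCOUPOE difference in PCV was not the one in other blood EC. They are the 8 of smallest p on each side, and the value is the log2 difference in PCV minus that in other blood EC, with its SE. The SE does not cover how the gap varies between control libraries, since there is a lone control. More negative in PCV were Hbb-bs at -5.88 ± 0.40, Vwf at -2.61 ± 0.20, Nr2f2 at -1.75 ± 0.18, Amigo2 at -2.03 ± 0.26, Hba-a1 at -4.57 ± 0.59, Acta2 at -2.32 ± 0.30, Hba-a2 at -4.41 ± 0.62 and Lbp at -2.00 ± 0.28. More positive were Ly6c1 at 1.64 ± 0.15, Fabp4 at 1.01 ± 0.09, Glul at 1.76 ± 0.22, Ccl21a at 1.21 ± 0.17, Tsc22d1 at 1.28 ± 0.19, Nrp1 at 1.55 ± 0.23, Edn1 at 1.40 ± 0.27 and Oaz2 at 1.16 ± 0.23.

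The 3 haemoglobin genes rest almost wholly on single control cells, and Acta2 in control PCV was held by 5 cells, of which 1 gave 35 of 89 UMIs. Ccl21a turned in female cells, and its difference from other blood EC was -0.59 in replicate 1 and 3.19 in replicate 2. The remaining 11 genes were each held by at least 46 control PCV.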

How the results depend on the processing

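No paired analysis was possible because there is a single control library, whose label carries no replicate number. The edgeR counts moved with the settings. Genes higher numbered 58 without TMM factors, 17 with DESeq2, 84 without a filter on low counts, 10 without doublets, 22 and 1 at rule limits of 3 and 6 UMIs, 34 with cells thinned before the rule, 38 without Selp in the rule, 6 in female and 0 in male cells, 5 without cells holding other-type UMIs (29 where keratins were not counted, an alternative chosen after seeing the data) and 17 with each PCV given equal weight. Genes lower numbered 41 without TMM factors, 67 without a filter, 19 at a limit of 3, 18 with thinned cells, 27 without Selp, 0 in male cells, 18 where keratins were not counted and 16 at equal weight. The cause was not tested. In male cells neither of the 2 and none of the 8 calls remained. In all settings but that one at least 1 of the 2 and 2 of the 8 did.

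By size, 516 and 218 genes were higher and lower without a filter, 60 and 18 at a filter of 200 UMIs and 55 and 30 at equal weight, where fewer genes were tested. Without a replicate the counts ran from 359 to 388 higher and from 201 to 748 lower. The interaction called 51 genes at a filter of 200 UMIs, 42 at a limit of 6, 61 with thinned cells, 48 without Selp, 57 in female and 1 in male cells.

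The PCV share was 13.97%, 17.69% and 9.938% at a limit of 3, 8.546%, 9.106% and 4.969% at 6, and 8.669%, 9.48% and 6.842% with thinned cells, in control, replicate 1 and replicate 2. Without Selp it was 10.73%, 11.49% and 2.899%, in female cells 13.16%, 15.83% and 5.625%, and in male cells 11.4%, 16.15% and 13.45%. For 64 named genes, 579 tested values under other settings kept their side of the threshold, 92 passed it in addition, 8 no longer did and 0 were called in reverse. Values without a replicate have no test.

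A gene needs 12.97 CPM in replicate 2 to reach 3 UMIs, against 1.187 CPM in replicate 1, so that library limits what is detectable. How control mice vary cannot be known from a lone library.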

Other observations

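Several of the genes furthest from control in PCV are neighbours in the genome (GENCODE vM21, GRCm38), a pattern seen after their values were known and not tested. Trim12a (chr7:104299894-104315466), Trim34a (chr7:104244457-104262234) and Trim30d (chr7:104470014-104507849) were all higher in both EC-iCOUPOE libraries. Trim34a stood at 0.929, 20.2 and 25.9 CPM and Trim30d at 0, 28.9 and 12.97 CPM. In cells outside blood endothelium Trim30d stood at 0, 17.4 and 12.8 CPM. On chromosome 12, Serpina1b, Serpina1e and Serpina3g lie within the same stretch (chr12:103728156-103830373, chr12:103946931-103958975 and chr12:104236245-104241939), and Serpina3g stood at 256, 18.6 and 4.32 CPM in PCV. On chromosome 9, Nxpe4 stood at 0, 37.2 and 64.8 CPM and Nxpe2, which lies within its span on the other strand, at 5.58, 23.3 and 21.6 CPM.

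Tgtp1, an interferon-induced GTPase, stood at 13.01, 12.7 and 303 CPM in PCV, so replicate 2 stood apart from replicate 1 of the same genotype. Genes of dividing cells summed to 17.7, 53.8 and 17.3 CPM in PCV and to 26.6, 176 and 94.8 CPM in other blood EC.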
